A study of Drosophila melanogaster with 3 samples.

Results

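Of the 6127 reproducible su(Hw) peaks mapped in whole Drosophila melanogaster embryos, 416 (6.79%, 95% exact binomial interval 6.17 to 7.45) had their summit within 1000 bp of the start of an annotated noncoding RNA. They were taken from the authors' dm6 list of peaks thresholded by the irreproducible discovery rate, using every transcript start of a gene with the biotype ncRNA in Ensembl release 115. Of the 416 summits, 217 (52.2%) also lay between 1000 bp upstream and 100 bp downstream of a protein-coding transcript start, here called a coding promoter window. The other 199 lay outside all such windows. The same windows held 50.9% of all 6127 summits. The rule used position alone, so peak strength, sequence, replicate recovery and neighbouring summits were free to vary among the members.

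The chromatin came from transgenic flies that express su(Hw) with enhanced green fluorescent protein at its C terminus, collected as embryos of 0 to 24 hours with the sexes pooled. All 3 libraries were biological replicates of this genotype and age, and the samples hold no second condition. The immunoprecipitation used an antibody against the tag, per the description in the labels, while the antibody field names su(Hw). Whole embryos mix all tissues and a full day of development, so a peak cannot be placed in a cell type or stage.

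Suppressor of Hairy-wing, su(Hw), is a protein with many zinc fingers that binds a defined sequence and recruits partners to chromatin insulators, elements that limit contact between enhancers and promoters. It is best known from the gypsy retrotransposon, whose insulator holds a cluster of its binding sites, and in the ovary it represses genes of the nervous system. Noncoding RNAs of the fly range from spliced polyadenylated transcripts and antisense transcripts of coding genes to the hairpins from which microRNAs are cut. Many start close to a coding gene, so a protein bound at such a start is often at a coding promoter as well.

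The label of long noncoding RNA was checked against the annotation. The biotype ncRNA held 3304 entries, of which 1947 were named as long noncoding RNAs, 503 as antisense RNAs, 747 as microRNAs and 107 otherwise. The microRNA entries were 262 hairpins and 485 mature products that lie inside them, so that 1 microRNA locus can be counted more than once. The nearest entry was a long noncoding RNA for 267 of the 416 summits, an antisense RNA for 115, a microRNA for 24 and another RNA for 10. For 27 summits, no ncRNA of 200 nt or more was in reach. The set is therefore described as summits at ncRNA starts. For a microRNA, the annotated start is that of the hairpin or mature product, and the primary transcript may begin elsewhere.

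Sequences at strong members show the range of sites in the set. The first 5 are centred on a match to the 12-base su(Hw) consensus, exact or with 1 mismatch, and are read on the strand of the match from 5′ to 3′, with the match in capitals. The matches are exact at mir-34 (chr3R:10100559-10100650, plus strand), CR45297 (chr2L:4812383-4812474, plus strand) and yar (chrX:361574-361665, plus strand). They hold 1 mismatch at CR43911 (chr3L:13301960-13302051, plus strand) and sncRNA:419 (chr3R:12363741-12363770, minus strand). The stretches at mir-34 and sncRNA:419 do not reach the summit base itself, and the other 3 of these hold it. The last 2, chosen after their values were seen, surround the summits at CR43838 (chrX:20760390-20760481, plus strand) and CR45738 (chr3L:4239476-4239567, plus strand). Both are strong peaks in which no match was found, and they are printed without capitals. The CR43838 stretch still holds TGCATA, the core of the consensus. The CR45738 stretch holds a CGATA, the sequence that is counted in pairs below. All are dm6 positions and RefSeq sequence of that build.
mir-34: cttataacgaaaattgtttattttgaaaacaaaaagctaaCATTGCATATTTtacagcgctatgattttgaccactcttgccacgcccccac
lncRNA:CR45297: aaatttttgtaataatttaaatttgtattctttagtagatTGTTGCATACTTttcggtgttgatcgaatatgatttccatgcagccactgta
lncRNA:yar: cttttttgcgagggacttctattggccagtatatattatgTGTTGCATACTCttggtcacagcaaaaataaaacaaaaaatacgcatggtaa
lncRNA:CR43911: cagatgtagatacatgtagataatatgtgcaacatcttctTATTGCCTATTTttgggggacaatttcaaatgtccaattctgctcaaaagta
sncRNA:419: tatcaaaatCATAGCATACTTcttggcgtc
lncRNA:CR43838: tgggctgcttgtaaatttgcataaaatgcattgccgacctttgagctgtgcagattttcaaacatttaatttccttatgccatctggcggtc
asRNA:CR45738: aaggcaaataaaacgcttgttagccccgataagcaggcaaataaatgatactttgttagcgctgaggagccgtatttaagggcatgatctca

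The strongest member lay inside ush, the gene of a zinc finger partner of GATA factors, 562 bp upstream of CR46258. It ranked 3 in the pooled list by the peak caller's signal, and 2, 3 and 4 in replicates 1, 2 and 3. No consensus match, counted here with at most 1 mismatch and within 100 bp on either strand, lay at this summit. The next 2, at CR45324 beside TER94 (the p97 ATPase) and at CR44209 beside Cyt-b5 (a cytochrome), ranked 12 and 13. All 3 lay in coding promoter windows. Of the strongest 50 peaks, 7 were members (14.0%), as were 10 of the strongest 100 (10.0%) and 57 of the strongest 1000 (5.70%), where the share among all 6127 was 6.79%.

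Outside coding promoter windows, the strongest member had rank 15. It lay 167 bp upstream of CR44503, next to sm, the gene of an RNA-binding protein of the hnRNP L family, and ranked 13, 14 and 16 in the replicates. A match with 1 mismatch lay 52.5 bp from its summit. The antisense RNA CR46453 followed at rank 20, with a summit also in reach of the start of CR46455 on the opposite strand. That summit had an exact match 14.5 bp away and replicate ranks of 18, 18 and 27. All 3 replicates thus placed both peaks near the top of their lists.

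The summit at mir-34, a conserved microRNA known in the fly for its part in ageing of the brain, ranked 46 in the pooled list. Its replicate ranks were 52, 45 and 45, and its peak spanned chr3R:10100257-10101054. The summit lay 253 bp upstream of the hairpin and 7659 bp from the nearest coding start, that of Fmr1. It was also in reach of the mir-277 hairpin (chr3R:10100022-10100121), on the same strand, and lay downstream of that hairpin. The exact match printed above lay 78.5 bp from the summit. Of all 416 members, 60 lay more than 5 kb from any coding start, and this was the strongest of them.

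The RNA yar is transcribed between yellow, a pigmentation gene, and achaete, a proneural gene, and loss of yar alters sleep in flies. A peak at chrX:361290-362045 had 2 summits, 781 and 566 bp upstream of yar, inside an intron of CG32816. The stronger ranked 93, and 89, 93 and 104 in the replicates, and the exact match printed above was centred 1.5 bp from it. The second ranked 1059, and 1345, 1310 and 807 in the replicates, and held no match. An endogenous su(Hw) insulator is known from the interval between yellow and achaete, and its position was not compared with this peak.

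Other strong members outside coding windows lay in varied places. The summit 517 bp downstream of the CR43838 start ranked 103 overall and 104, 100 and 100 in the replicates, at 14471 bp from the nearest coding start. No match was found there. The summit at CR43911 ranked 165, and 146, 158 and 180 in the replicates, with a match of 1 mismatch 22.5 bp away, and lay 393 bp from the start of SP, the gene of the seminal sex peptide. The summit near sncRNA:419 lay past the end of this 74-nt RNA, in an exon of Tim17a1, a relative of the mitochondrial import channel. It ranked 221, with 250, 214 and 210 in the replicates. CR44284 (rank 222), in an intron of the GTPase gene Rab32, had an exact match, while CR45277 (245) and CR45131 (293) had none. Of these 10 strongest members outside coding windows, 7 had a consensus match. The match was at 22.1% of all 199 members and at 32.0% of all summits there. In the strongest tercile of the list it was at 26.7% of the 75 members and at 46.5% of other summits there.

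Inside coding windows, mir-4985 beside Fatp3 ranked 47, CR45297 beside CG15629 ranked 54 and CR45738 beside Sqor, a sulfide oxidation enzyme, ranked 89. Of these summits, that at CR45738 lay past the end of this 437-nt RNA. The replicates gave 40, 49 and 55 for mir-4985, and 69, 64 and 47 for CR45297. For CR45738 they gave 98, 84 and 80. Among these 3, the exact consensus was found at CR45297.

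**Figure D1:**
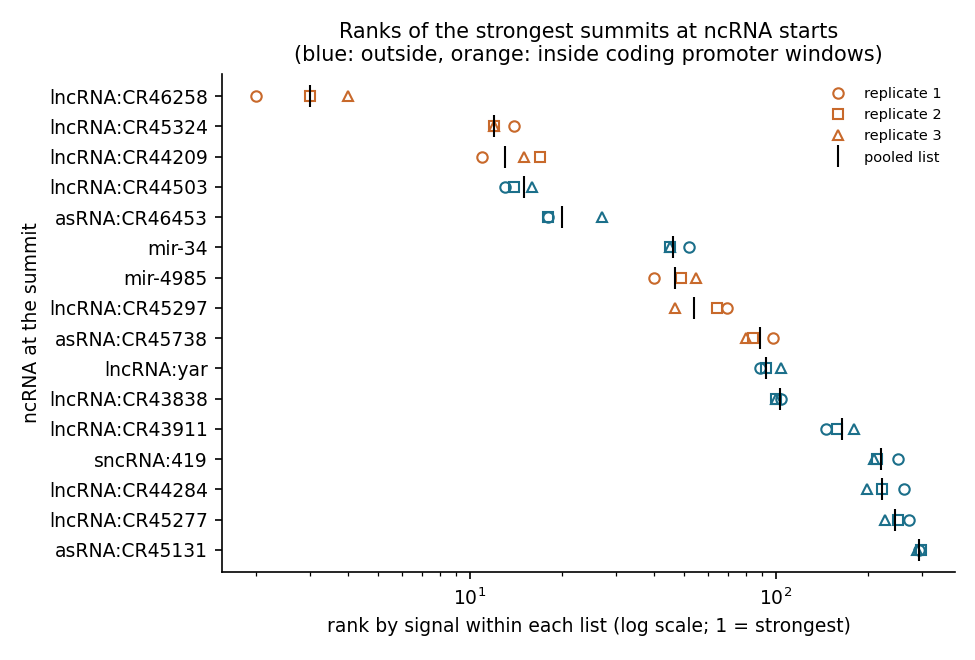
Rank by signal (log axis, 1 is the strongest) of the 10 strongest summits at ncRNA starts outside and the 6 strongest inside coding promoter windows, in the pooled list (bar) and in each of 3 replicates (open symbols). The replicates keep each summit close to its pooled rank, from 3 at CR46258 to 293 at CR45131. The summits were picked by rank in the pooled list, which was made from these replicates, so closeness follows in part from the choice.

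Over all members, the pooled rank had a median of 3148 (quartiles 1668 and 4639) of 6127, so the set was not made up of strong peaks. The median was 2848 for members outside coding windows and 2947 for other summits there. Inside coding windows it was 3486 and 3152. Ranks up to 3063, the stronger part of the list, held 52.3% of members and 51.8% of others outside coding windows (all summits there, 51.9%), a difference of 0.428 percentage points (interval −9.75 to 10.4). Inside them they held 45.2% and 48.4% (all, 48.2%), a difference of −3.25 points (−12.8 to 6.58). Neither difference was called. Here and below, a difference of 2 shares has a Newcombe interval at 95% adjusted by Bonferroni over 10 differences, and it was called when that interval excluded 0. For these differences no p-value was computed since summits are not independent.

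Recovery of members in the replicates showed no called difference from other peaks. A peak of the strongest 6127 of replicates 1, 2 and 3 lay within 200 bp of 84.4%, 83.2% and 89.7% of members (85.7% ± 3.45, SD, n = 3), where all thresholded summits gave 86.1%, 84.7% and 89.1% (86.6% ± 2.24). The share found in all 3 was 67.8% of members and 70.5% of others outside coding windows (70.3% of all summits there, and 69.3% of the whole list). The difference was −2.61 points (−12.7 to 6.20). Inside, it was 64.1% and 68.8% (all, 68.5%), a difference of −4.72 points (−14.5 to 4.13). The thresholded list was made from these replicates, so high recovery follows in part from its making. In each replicate's own strongest 6127 peaks, 432, 413 and 427 lay at ncRNA starts, or 7.05%, 6.74% and 6.97% (6.92% ± 0.161).

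Of the 416 members, 406 were matched by a summit in every replicate's list and 10 were not. Variation in rank was taken as the worst over the best replicate rank, with a list that gave no match counted as past its last rank. By this measure the 3 most variable members each lacked a match in at least 1 replicate. At mir-303, a peak with its first summit at rank 101 had a second at rank 3625 that was matched by a summit of replicate 3 alone. The summit at CR45478, in the promoter of PIG-K, ranked 1656 and 2239 in replicates 1 and 2 and was not matched in replicate 3. At CR31840 (rank 4788) replicates 2 and 3 gave 2059 and 3418 and replicate 1 gave no match. Among the 406 matched members the widest ratio was 11.9, at CR45650 (rank 4315), which ranked 8160, 4446 and 687 in the replicates.

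Summits outside coding windows lay more often upstream of the ncRNA start than downstream of it. There, 122 of 199 (61.3%, 54.2 to 68.1) were upstream, at a median of 340 bp, and the rest were downstream at a median of 479 bp. Inside coding windows, 110 of 217 (50.7%, 43.8 to 57.5) were upstream. Of all 416 members, 183 lay downstream of the nearest start, while only 121 lay within any ncRNA gene. Some downstream summits thus lay past the end of the RNA. Over all members the median distance to the start was 434 bp. The counts were 126 summits within 250 bp, 118 from 251 to 500 bp, 104 from 501 to 750 bp and 68 from 751 to 1000 bp. The 5 members nearest the limit lay at 983 to 999 bp and had ranks from 89 to 3559, and the 5 summits just beyond it lay at 1005 to 1014 bp and had ranks from 2998 to 5855.

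**Figure D2:**
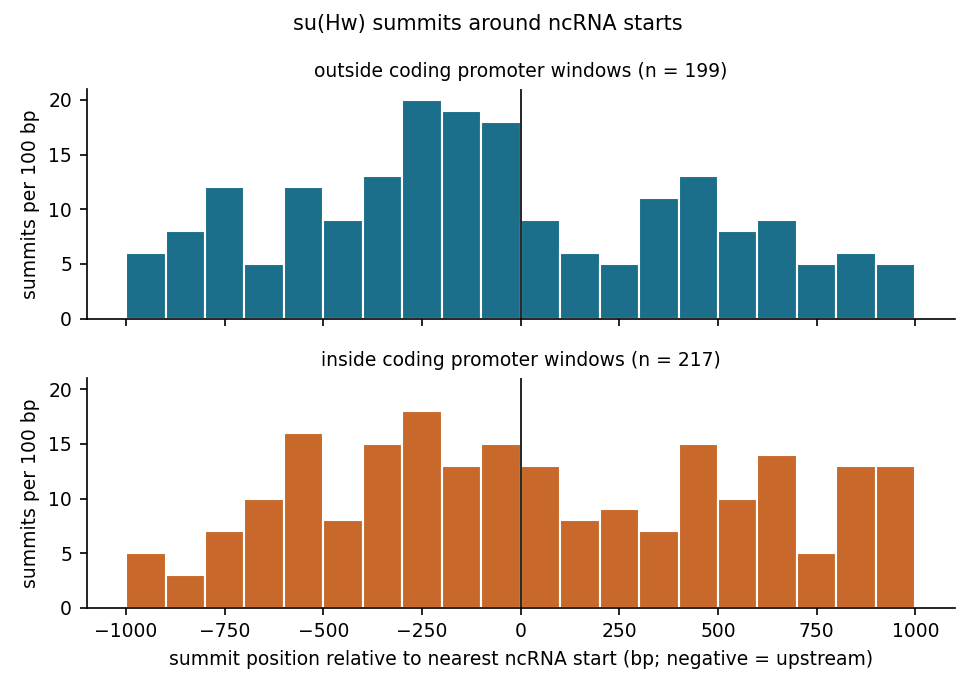
Number of summits per 100 bp (vertical axis) by position relative to the nearest ncRNA start in bp (horizontal axis, upstream negative), for the 199 members outside (top) and the 217 inside (bottom) coding promoter windows. Outside, 61.3% of summits lie upstream, with the fullest bins just upstream of the start, and inside, 50.7% do.

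Seen from the RNAs, 415 of the 3304 ncRNA entries (12.6%, 11.4 to 13.7) had a thresholded summit within 1000 bp of a start. For protein-coding genes the same count gave 3988 of 13986 (28.5%). Both counts took any transcript start of a gene, and the number of starts per gene was not equalized. Entries with a coding start within 1000 bp had a summit in 23.3% of cases (219 of 941, 20.6 to 26.1), and those without in 8.29% (196 of 2363, 7.21 to 9.48). In these counts the gap was largest for antisense RNAs, at 28.9% and 5.26%. It was 22.1% and 8.66% for long noncoding RNAs and 17.9% and 8.89% for microRNA entries. Of the 262 hairpins alone, 28 had a summit, 17.5% of the 63 with a coding start nearby (9.05 to 29.1) and 8.54% of the 199 without (5.06 to 13.3), and these intervals overlap. Without the 485 mature products, 361 of 2819 entries had a summit (12.8%, 11.6 to 14.1), 23.9% of those with and 8.15% of those without a coding start nearby. Coding genes showed a smaller gap by the presence of an ncRNA start, 31.5% of the 933 with one within 1000 bp and 28.3% of the 13053 without.

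**Figure D3:**
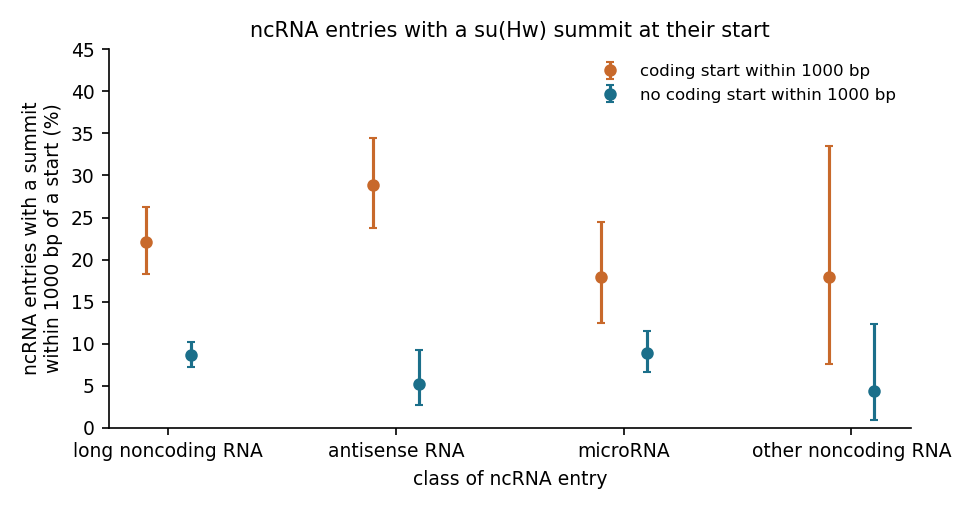
Share of ncRNA entries (vertical axis, percent) with a thresholded summit within 1000 bp of a start, by class (horizontal axis) and by whether a coding start lies within 1000 bp, with 95% exact binomial intervals. The share with a coding start nearby is higher in all 4 classes, 28.9% against 5.26% for antisense RNAs, and the intervals of the other noncoding RNAs overlap. MicroRNA entries include mature products beside their hairpins.

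The share with a summit also varied among 4 classes set by position and orientation relative to coding genes. The first, the divergent class, requires a coding start within 1000 bp, and all 941 entries with one gave 23.3%. These shares do not separate orientation from distance to a coding start. Of 501 ncRNA entries that start within 1000 bp of a coding start and run away from it, 122 had a summit (24.4%, 20.7 to 28.4). Of 709 that start inside a coding gene on the opposite strand, 106 did (15.0%, 12.4 to 17.8). The shares were 10.2% of 576 on the same strand inside a coding gene and 8.43% of 1518 outside coding genes. Without mature microRNA products the 4 shares were, in the same order, 24.8%, 15.3%, 9.65% and 8.21%. A consensus match was at 23.0% of the 126 members of this last class (16.0 to 31.4) and at 12.7% of the 134 members of the divergent class (7.57 to 19.5). For a pair of CGATA sequences the order was the opposite, 3.17% (0.872 to 7.93) and 13.4% (8.16 to 20.4). CGATA is the recognition sequence of BEAF-32, another insulator protein. Pairs were searched on both strands within 40 bp, so that one palindromic site that reads CGATA in both directions also counts. These 2 orientation classes also differ in location, since 107 of the 126 members lay outside and 123 of the 134 inside coding promoter windows. Over all thresholded summits the consensus was at 32.0% outside and 11.5% inside such windows, and the pair at 1.66% and 15.8%, and the contrast of orientations was not tested apart from location.

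Outside coding promoter windows, the su(Hw) consensus was less frequent at ncRNA starts than at other peaks. A match lay at 44 of 199 members (22.1%, 16.5 to 28.5) and at 920 of 2809 other summits (32.8%, 31.0 to 34.5), where all summits there gave 32.0%. The difference of −10.6 points (−18.2 to −1.10) was called. It was no longer called with exact matches alone (−4.57), a search within 200 bp (−9.56), ncRNA windows of 2000 bp (−7.41) or a coding window from 2000 bp upstream to 500 bp downstream (−10.8), though its sign stayed the same. Inside coding windows the shares were 11.1% (24 of 217) and 11.6% (336 of 2902), with a background of 11.5%, and the difference of −0.518 points (−5.51 to 7.04) was not called. Over all members, exact matches were at 22 (5.29%) and the core TGCATA, which is part of the consensus and was searched on both strands, at 80 (19.2%), with 7.05% and 23.5% over all summits. The 68 consensus matches had a median distance of 20.0 bp from the summit, and 51 (75.0%) lay within 50 bp.

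Each replicate's own strongest 6127 peaks gave the same order outside coding windows. The consensus was at 19.9%, 23.0% and 17.6% of the summits at ncRNA starts (20.2% ± 2.71, SD, n = 3) and at 31.9%, 34.7% and 30.8% of the others (32.5% ± 2.03). The difference was −12.0, −11.7 and −13.1 points (−12.3 ± 0.757). It was negative in 3 of 3 replicates, with p = 0.250 in a two-sided exact sign-flip permutation test. This is the smallest p that 3 replicates allow, so the test cannot decide the question. Of all thresholded summits, 86.1%, 84.7% and 89.1% were top-ranked in replicates 1, 2 and 3, and the genome sequence is the same. The 3 differences are thus not independent, and their SD leaves out the counting error. Inside coding windows the differences were −1.67, 0.0752 and 0.107 points. Among 20682 weak pooled peaks more than 1 kb from any thresholded summit, the shares outside coding windows were 9.31% and 10.4%.

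**Figure D4:**
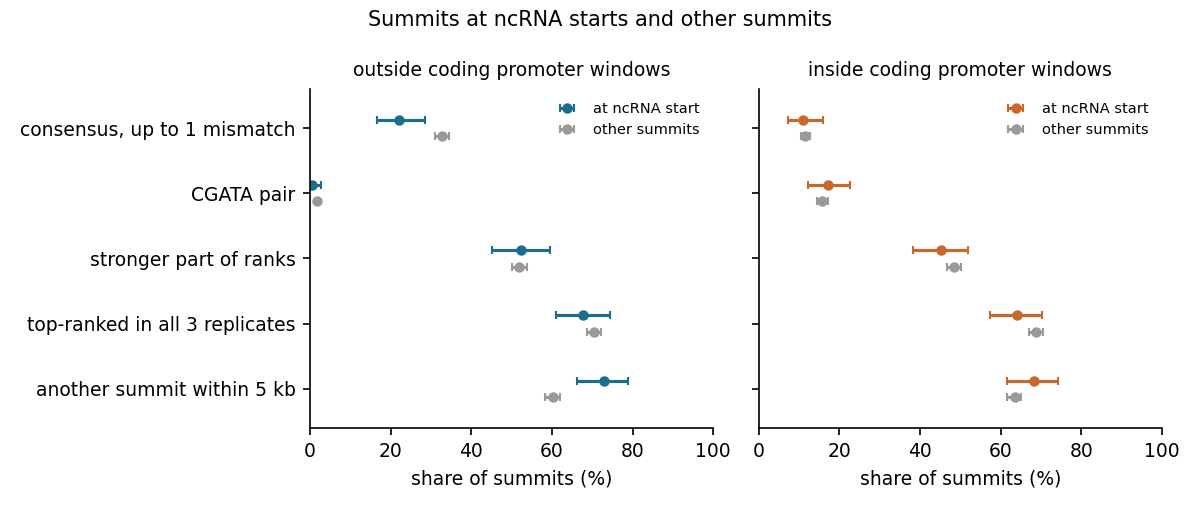
Share of summits (horizontal axis, percent) with each of 5 features for summits at ncRNA starts (coloured) and other thresholded summits (grey), outside (left) and inside (right) coding promoter windows, with 95% exact binomial intervals. Outside, the consensus is at 22.1% and 32.8% and another summit within 5 kb at 72.9% and 60.3%, the 2 differences that were called.

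By peak strength, the shares lay furthest apart among strong peaks. In the strongest tercile of the list, the consensus was at 26.7% of members outside coding windows (20 of 75, 17.1 to 38.1) and at 46.5% of other summits there (43.4 to 49.6). The shares were 18.5% (9.25 to 31.4) and 28.4% (25.4 to 31.5) in the middle tercile. They were 20.0% (11.4 to 31.3) and 21.9% (19.3 to 24.7) in the weakest, where the intervals overlapped widely. Among other summits the consensus became less frequent with falling strength, while the intervals of the members in the 3 terciles overlapped. Whether the terciles differ in the gap was not tested. Inside coding windows members went from 22.4% through 9.09% to 4.88%, and others from 20.4% through 8.58% to 6.57%.

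**Figure D5:**
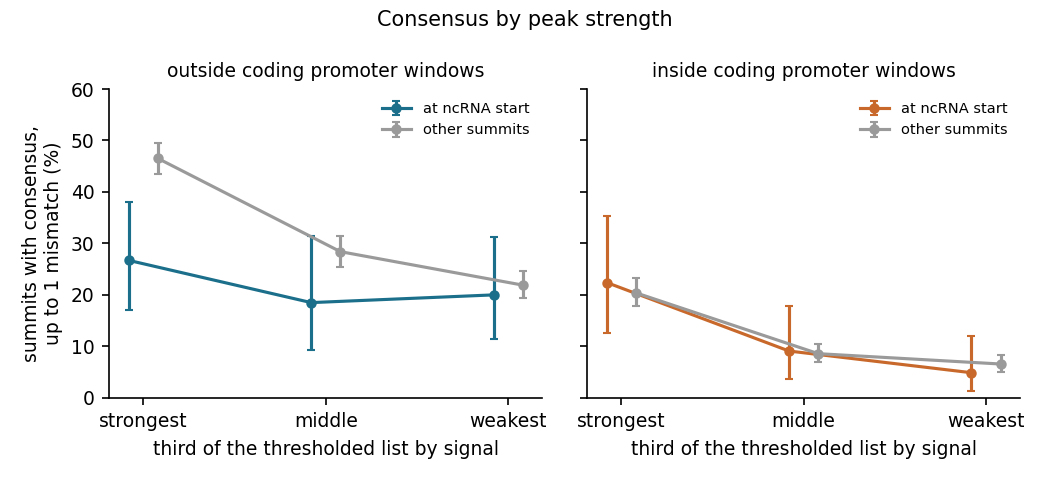
Share of summits with a consensus match (vertical axis, percent) in the strongest, middle and weakest tercile of the thresholded list (horizontal axis), outside (left) and inside (right) coding promoter windows, with 95% exact binomial intervals. In the strongest tercile outside, members stand at 26.7% and other summits at 46.5%, and inside the values are 22.4% and 20.4%.

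The lower share of the consensus was seen both between and within coding genes. Between coding genes it was at 31 of 114 members outside coding windows (27.2%, 19.3 to 36.3) and at 41.8% of other summits (38.3 to 45.4). In introns it was at 11 of 74 (14.9%, 7.66 to 25.0) and at 29.5% (27.3 to 31.7). Base composition within 100 bp was close, with a median AT content of 62.7% for members and 62.2% for others outside coding windows, and 64.2% for both inside them. Of all 416 members, 255 (61.3%) lay between coding genes, 110 (26.4%) in introns, 50 (12.0%) in untranslated exons and 1 (0.240%) in coding sequence. The shares over all thresholded summits were, in the same order, 44.8%, 40.9%, 12.9% and 1.39%.

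The 14 members outside coding windows with an exact consensus (7.04%, with 11.3% of all summits there) were not all strong. Their ranks ran from 20 at CR46453 to 4571 at CR44219, with CR45778 at 537, CR44810 near slbo, the gene of a C/EBP factor needed for border cell migration, at 1565, and CR45624 in an intron of the RNA-binding protein gene Imp at 1772. Of the 8 inside coding windows (3.69%, with 2.95% of all summits there), CR43644 at rank 424 lay in the promoter of E(spl)m3-HLH, a Notch target. CR45141 (568) lay in that of vg, a wing selector gene, and CR45668 (1605) in that of the actin gene Act5C. These members were named after their values were seen.

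Pairs of CGATA showed no called difference. Inside coding windows they were at 37 of 217 members (17.1%) and 456 of 2902 others (15.7%), where all summits there gave 15.8%, a difference of 1.34 points (−4.96 to 9.82). Outside them, 1 member (0.503%) and 49 others (1.74%) held a pair, with a background of 1.66% and a difference of −1.24 points (−2.20 to 3.02). Inside, pairs were at 6.90% of members in the strongest tercile (1.91 to 16.7), 22.1% in the middle (13.4 to 33.0) and 19.5% in the weakest (11.6 to 29.7). Others went from 8.98% to 18.4% and 19.1%.

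Members outside coding windows had another su(Hw) summit nearby more often than other summits. A further thresholded summit lay within 5 kb of 145 of 199 (72.9%) and of 1693 of 2809 (60.3%), with 61.1% over all summits there. Of these 145, 91 had a neighbour that was itself a member, so both summits of a pair can count. The difference of 12.6 points (2.67 to 20.9) was called. It was not called with neighbours within 1 kb (7.20), with ncRNA windows of 500 bp (11.7) or among ranks up to 3063 (12.6). The shares were 72.8% (63.7 to 80.7) and 51.0% (47.4 to 54.5) between coding genes, and 74.3% (62.8 to 83.8) and 62.8% (60.5 to 65.1) in introns. Inside coding windows they were 68.2% and 63.5%, with a background of 63.8% and a difference of 4.73 points (−4.97 to 13.2).

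Clusters of members formed at a few RNAs. Of the 415 entries, 322 had 1 member in reach, 84 had 2, 8 had 3 and 1 had 4. Without mature microRNA products these counts were 284, 68, 8 and 1. The one with 4 was CR45339, which starts close to Cda5, a chitin deacetylase gene, and dbr. Its summits ranked 1007, 1113, 3023 and 4426, and CR45340 close by shared 3 of them. At CR45297 the summit of rank 54 was joined by 2 of ranks 974 and 4990, the first of them in the same peak. At CR45778 ranks were 537, 2575 and 5986, and at CR45352 they were 1128, 2539 and 5978. The remaining 4 RNAs with 3 members were CR43654, CR44366, CR44390 and CR44982, whose strongest summits ranked 1652, 1809, 2199 and 3559. A neighbour may thus be a second summit of one peak, which the authors listed separately. Among 51 ncRNA genes over 2000 bp long with a summit at the start, 13 (25.5%, 14.3 to 39.6) also had one within 1000 bp of the end, where 33 of 285 without a summit at the start did (11.6%, 8.11 to 15.9).

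Of all 3304 ncRNA entries, 12.6% had a summit within 1000 bp of a start. With a coding start within 1000 bp the share was 23.3% of 941. Among well studied noncoding RNAs, chosen by name, 8 of 24 entries looked up with the biotype ncRNA had one, and the contrast was not tested. Besides yar, these were Hsromega, whose nuclear transcripts gather RNA-binding proteins after heat shock, with rank 4431 at 171 bp and no match in replicate 2, and RNaseP:RNA, the RNA of the tRNA-trimming enzyme, with rank 5993 at 926 bp and replicate ranks of 3586, 22380 and 6136. At flam, the piRNA locus that silences gypsy and its relatives in the ovary, a summit of rank 5650 lay 207 bp from the start, with replicate ranks of 4589, 5983 and 7580. The snoRNA host genes Uhg2, Uhg4, Uhg5 and Uhg8 had summits of rank 4132, 1116, 2588 and 2088, all in coding promoter windows. Of these 8, 4 had a rank up to 3063, and yar alone (12.5%) was among the strongest 1000, which make up 16.3% of all thresholded summits.

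The other 16 had their nearest summit 1222 to 59375 bp away. For the roX RNAs, which help to target dosage compensation to the male X, these distances were 1457 bp at roX2 (rank 2872, in the promoter of nod) and 5971 bp at roX1 (rank 4118). The strong summit nearest to Vinr, of rank 409, lay 1424 bp from its start, and that nearest to Uhg7, of rank 840, lay 1429 bp away in the promoter of RpL23A. For bxd and iab8, RNAs of the bithorax complex, the nearest summit was the same peak of rank 8 near Glut3, at 25616 and 49864 bp. The distances were 12376 bp for let7C, the primary transcript of let-7, 11922 bp for cherub, 4571 bp for CRG and 2500 bp for acal. Under other biotypes, and so outside the set, a summit of rank 4970 lay 868 bp from 7SKa, an RNA that restrains transcription elongation, and one of rank 4791 lay 1623 bp from IBIN.

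A microRNA was the nearest entry for 24 of the 416 members. Of these, 11 (45.8%) lay in coding promoter windows and 4 (16.7%) held a consensus match. All thresholded summits gave 50.9% and 21.6%. Besides mir-34 and mir-4985, mir-303 had a summit of rank 101, which lay 93 bp upstream in the promoter of CG3626 and ranked 101, 86 and 116 in the replicates. The summit at mir-1001, in an intron of tau, the gene of a microtubule-binding protein, ranked 1578 and held a match with 1 mismatch. That at mir-308, in the promoter of the ribosomal protein gene RpS23, ranked 2707 and held a CGATA pair. At mir-279, which in the fly keeps CO2-sensing neurons from forming in the maxillary palp, a weak summit of rank 5449 lay 15 bp upstream of the hairpin. Of the 24, 11 (45.8%) had ranks up to 3063 and 3 (12.5%) were among the strongest 1000, close to the 13.7% of all members and the 16.3% of all thresholded summits.

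By chromosome, 2R held 96 of the 416 members (23.1%), where it held 19.4% of all thresholded summits and 16.9% of ncRNA entries. The shares on 3L were 16.6%, 21.0% and 19.9%, and on X 16.3%, 17.2% and 14.6%. Chromosome 4 had 3 members among its 25 thresholded summits. The Y chromosome had no member, with 1 thresholded summit and 28 ncRNA entries there. These shares describe the set and were not tested.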

How the data were processed

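Chromatin immunoprecipitation sequencing of su(Hw)-eGFP embryos was analysed from the peak lists that the authors deposited for 3 biological replicates, pooled replicates and the thresholded set. Per the labels, chromatin was sonicated to fragments of 200 to 800 bp. The replicate and pooled lists hold 30000 peaks each, weak ones included. The deposited signal of each peak is the peak caller's own value, on a scale the files do not define, and was used only to rank peaks within a list. The sources used here do not give the caller, the aligner, their versions, the threshold or the read depth. Lists in dm3 were not used, and no coordinates were converted. Spread between these replicates may be in part technical, since the labels do not say how the collections were separated.

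Summits were set against Ensembl release 115 annotation and RefSeq sequence of the same genome release 6, and no dm6 peak passed a chromosome end. Coordinates are 1-based. A summit matched a replicate summit within 200 bp, so 2 close summits can share a match. Top-ranked means among the strongest 6127 of a replicate. Members and other summits were compared separately outside and inside coding promoter windows. Shares have exact (Clopper-Pearson) 95% intervals, and differences Newcombe intervals at 99.5% over a family of 10. Intervals cover counting error only, and summits that share a peak or gene are not independent. Terciles divide the whole thresholded list by signal.

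Named RNAs were those of the 10 strongest members outside and the 6 strongest inside coding windows, the 5 with most members (ties by the strongest member, with the other tied RNAs added), the 3 members with the largest ratio of replicate ranks, and a list of well studied noncoding RNAs, of which 24 of 27 entries found had the biotype ncRNA. Sequences are those at the strongest members with the consensus, arm 2R not used, and at 2 strong members without it, shortened to 30 bases in a coding gene's exon. The members and lists were chosen with earlier results of these data known. Alternatives changed the windows, the ncRNA set, the peak set, the motif search, the matching and the neighbour distance. Each replicate was also left out in turn, by keeping only thresholded peaks that were top-ranked in the other 2. Functions were tested on simulated data. Computations used numpy 2.4.6, scipy 1.17.1, pandas 2.3.3 and matplotlib 3.10.9 under Python 3.11.15.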

Additional observations from a re-analysis of the deposited data

How the results depend on the processing

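No paired analysis was possible between groups of samples because all 3 belong to 1 group, and members and others were compared within each replicate instead. The 2 called differences, both outside coding windows, kept their sign under every alternative run, from −16.8 to −4.57 points for the consensus (16 alternatives) and from 7.20 to 17.0 for a neighbour (14). The consensus was no longer called with ncRNA windows of 2000 bp (−7.41), the wide coding window (−10.8), a motif search within 200 bp (−9.56) or exact matches (−4.57). The neighbour was not called with ncRNA windows of 500 bp (11.7), among ranks up to 3063 (12.6) or within 1 kb (7.20). The other differences were not called, and some changed sign around 0. Inside coding windows the consensus gave 1.75 with ncRNA windows of 500 bp, 1.16 with 2000 bp, 1.55 among ranks up to 3063 and 0.792 with exact matches. The CGATA pair there gave −0.108, −0.747 and −0.994 under the first 3 of these. The share of ranks up to 3063 gave inside 1.40 with windows of 2000 bp, and outside −0.0715 with gene starts alone and −0.551 with the wide coding window. Recovery in 3 replicates gave 1.85 outside among ranks up to 3063 and 0.901 inside with whole replicate lists. The neighbour inside gave −1.53 among ranks up to 3063. Leaving out 1 replicate meant keeping thresholded peaks top-ranked in the other 2, while the list and its ranks still came from all 3. This gave the consensus −14.6 to −12.3 outside and 0.0366 to 0.672 inside. In the same order, the pair gave −1.13 to −1.05 and 0.0482 to 2.37. Ranks up to 3063 gave −0.324 to 5.83 and −5.01 to −1.67, and the neighbour 12.6 to 17.0 and −1.31 to 1.72. The share of summits at ncRNA starts was then 6.45% to 6.76%, and that of ncRNA entries with a summit 9.47% to 9.93%, since fewer peaks were kept. By construction these shares followed the window, with 3.98% and 7.51% at 500 bp and 11.1% and 20.1% at 2000 bp, and the second was 6.60% among ranks up to 3063. A coding window to 1000 bp on both sides and leaving out microRNA members, chosen after seeing the data, changed no call. Leaving out mature microRNA products, also chosen then, gave 12.8% of entries with a summit. Causes were not tested. Read depth is unknown, and 199 members outside coding windows cannot show differences of a few points.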
